A study of Mus musculus with 24 samples.

Results

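Cntnap2 and 9 gene models that lie inside its introns on the same strand were described in the nucleus accumbens (NAc), a ventral striatal region of reward, of 24 mice. These 10 of the 52636 gene identifiers were taken by name from the stretch of chromosome 6 that Cntnap2 spans, and they were chosen on the female libraries, in which the counts of the models differed between the groups. The groups were control females (CONF), females of litters that underwent MSUS, a daily separation from the dam together with unpredictable stress of the dam (MSF), control males (CONM) and MSUS males (MSM), all C57BL/6 mice killed at 50 days of age, with 6 mice and 1 library per mouse in each group. According to the labels, the pups of the MSUS groups were separated for 2 h per day from postnatal day 1 to 14 (the study's methods give a longer daily separation), and no group carried a transgene. The comparison of MSUS with control animals within each sex asks how early-life stress alters NAc RNA. Each library was made from total RNA of bilateral NAc punches by depletion of ribosomal RNA, which keeps RNA with and without a poly(A) tail, spliced or not.

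Cntnap2 encodes Caspr2, a transmembrane protein of the neurexin family. In myelinated axons Caspr2 lies next to the paranode, where it binds the contactin encoded by Cntn2 and holds voltage-gated potassium channels of the Kv1 class in place, and it is also found at synapses and along unmyelinated axons. Human CNTNAP2 is known for its links to epilepsy, autism and language disorders, and the transcription factor FOXP2 is known to bind it. A gene of this length is transcribed for many hours before its RNA is complete, so that RNA of its introns is present in nuclei before splicing.

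On GRCm38, the assembly also called mm10, Cntnap2 (ENSMUSG00000039419) runs from chr6:45059357-47304213 on the plus strand, a length of 2244857 bp with 10248 bp of exons over its 6 annotated transcripts. The longest of them has 24 exons and 23 introns, and its intron 1 is 593.6 kb long, or 26.4% of the gene. The annotation places 24 gene models wholly inside these introns on the strand of Cntnap2. Of these, 12 lie in intron 1 and 12 in later introns, and 7 of the latter are in intron 8. Of the 9 listed models, 8 are in intron 1, from B230112I24Rik (14.2 kb from the start of the gene) to Gm43876 (469.7 kb), and Gm43886 is in intron 3 (842.6 kb). Each listed model is a single exon of 1229 to 3760 bp with the biotype TEC, a class of the annotation for transcripts still to be tested by experiment, and no function is known for any of them.

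A single exon inside an intron is counted apart from its host, and pairs of reads from unspliced Cntnap2 RNA over such an exon go to the model. The counts therefore cannot tell a separate transcript of the model from unspliced RNA of Cntnap2. The sequences bear on this only as a description. The last 60 bases of 4 listed models are given here, those of the 5′-most model, the only 2 listed models with an AATAAA hexamer there, and the model in intron 3. All are on the plus strand of GRCm38, taken from the GENCODE M21 transcript sequences. Capitals mark the hexamer AATAAA, the usual signal for cleavage and addition of a poly(A) tail.
B230112I24Rik (chr6:45074735-45074794): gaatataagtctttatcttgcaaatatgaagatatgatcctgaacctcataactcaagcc
Gm43879 (chr6:45084446-45084505): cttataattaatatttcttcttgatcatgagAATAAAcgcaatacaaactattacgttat
Gm43880 (chr6:45415337-45415396): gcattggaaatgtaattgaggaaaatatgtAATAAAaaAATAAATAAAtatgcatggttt
Gm43886 (chr6:45904264-45904323): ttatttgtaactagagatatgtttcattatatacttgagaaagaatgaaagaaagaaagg

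The hexamer AATAAA, searched on the strand of the model, ended 23 bases before the end of Gm43879 and 12 bases before the end of Gm43880. Neither AATAAA nor the next most common form, ATTAAA, was found in the last 60 bases of the other 7 listed models. One or both forms were present in 20.6% of the last 60 bases of 1368 TEC models inside same-strand introns of other protein-coding genes, and AATAAA alone in 15.3%. The listed models were rich in A and T, with 31.4% (Gm43874) to 40.2% (Gm43876) G and C, and all 9 were below the median of the other TEC models, 40.9%.

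The libraries held 39923666 to 70575745 sense counts each. All 8 markers of striatal projection neurons, the main cells of the NAc, were present in every group, with a lowest group mean of 6676 normalized counts (counts divided by DESeq2 size factors over 24 libraries) for Drd2, the D2 dopamine receptor. The no-gene share, which is the share of read pairs that overlapped no exon on the sense strand, was 31.0 to 34.8% in CONF, 36.3 to 43.9% in MSF, 34.7 to 40.6% in CONM and 32.2 to 44.7% in MSM, so that the female groups did not overlap and the male groups did. In the female comparison, 5156 of 20571 genes tested (25.1%) passed, 13.1% higher and 11.9% lower in MSF, where passing means an adjusted p of less than 0.10 in edgeR's quasi-likelihood test. In the male comparison none of 20691 passed (0%), and 191 (0.923%) had an unadjusted p under 0.05. Litters were not given in the labels, so that the p values measure the spread between these samples.

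Cntnap2 itself was abundant in every library. It had 8650 to 13026 normalized counts in CONF (median 11172), 10419 to 15440 in MSF (median 13553), 9346 to 13303 in CONM (median 11966) and 9766 to 14000 in MSM (median 12180). The 4 groups overlapped. The log2 fold change of MSF over CONF was 0.25 (SE 0.11), and Cntnap2 did not pass in females. That of MSM over CONM was 0.03 (SE 0.094, adjusted p = 1.000 by edgeR's quasi-likelihood test). Per kb of exon, Cntnap2 had 1074 normalized counts in CONF and 1273 in MSF, above every model in its introns.

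The models differed from their host in the female libraries. B230112I24Rik, the model nearest the start of the gene, had 79.1 to 134 normalized counts in CONF (median 97.6) and 165 to 267 in MSF (median 213). Gm43879, just downstream and one of the 2 models with the AATAAA hexamer, had 149 to 257 in CONF (median 176) and 343 to 477 in MSF (median 445). In both models every MSF library lay above every CONF library. The male libraries of B230112I24Rik ranged from 80.0 to 236 in CONM (median 172) and from 79.1 to 342 in MSM (median 175), and thus covered the values of both female groups. Gm43879 had 196 to 483 in CONM (median 358) and 197 to 645 in MSM (median 339), with MSM1 highest and MSM6 lowest.

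Gm43885 and Gm43889 are neighbours in intron 1, downstream of the first 2 models. Gm43885 had 74.8 to 120 normalized counts in CONF (median 105) and 183 to 285 in MSF (median 226). Gm43889 had 136 to 221 in CONF (median 186) and 362 to 522 in MSF (median 429). Among males, Gm43885 had 125 to 233 in CONM (median 181) and 99.5 to 389 in MSM (median 174), and Gm43889 had 165 to 428 in CONM (median 363) and 202 to 646 in MSM (median 332). The female groups did not overlap in either model and the male groups did, with CONM5 the lowest control male and MSM1 the highest MSUS male in both.

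Gm43874 and Gm43882 lie in the middle of intron 1. Gm43874 had 72.9 to 136 normalized counts in CONF (median 86.0) and 203 to 245 in MSF (median 226), with CONF6 the highest control female. Gm43882 had 59.8 to 108 in CONF (median 74.0) and 149 to 233 in MSF (median 185). In males the medians were 181 in CONM and 156 in MSM for Gm43874, and 155 and 141 for Gm43882. The MSM libraries of Gm43874 ran from 87.2 (MSM2) to 337 (MSM1), a range that holds every CONM library but CONM5 at 86.0.

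The last 2 models of intron 1 and the model of intron 3 gave the same order of groups. Gm43880, which ends in a run of AATAAA hexamers, had 46.7 to 102 normalized counts in CONF (median 77.1), 169 to 245 in MSF (median 181), 81.0 to 228 in CONM (median 165) and 98.6 to 273 in MSM (median 147). Gm43876 had 48.7 to 75.8 in CONF (median 64.4), 135 to 172 in MSF (median 149), 80.0 to 157 in CONM (median 129) and 67.5 to 203 in MSM (median 113). Gm43886 was low, with 2 to 10 counts per library in CONF and 14 to 18 in MSF, or 2.03 to 8.92 and 13.4 to 19.8 normalized counts. CONF was thus the low group throughout, while MSF, CONM and MSM overlapped in all 9 models.

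**Figure D1:**
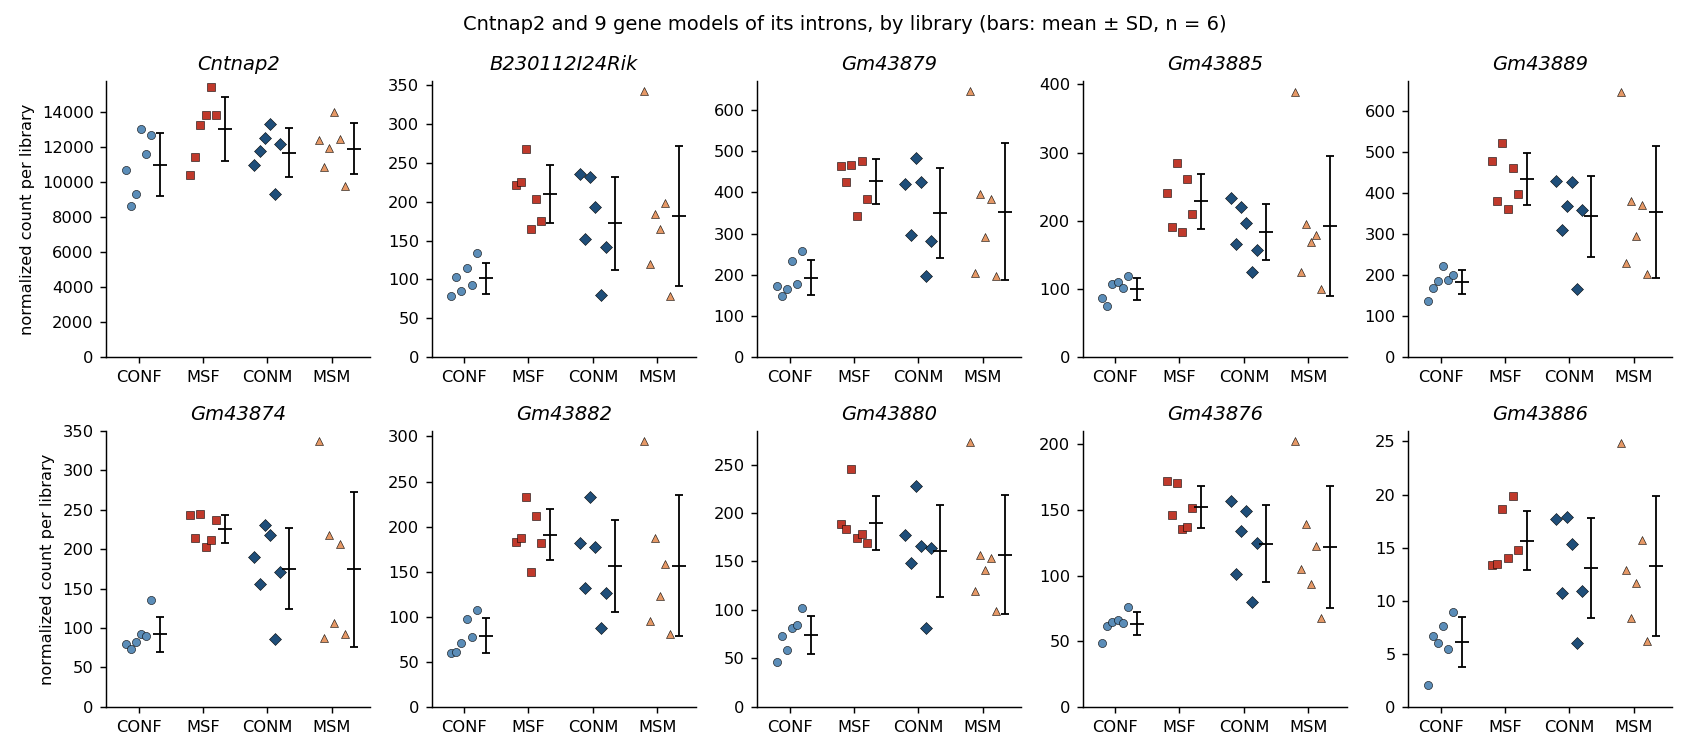
Normalized counts (y axis) of Cntnap2 and the 9 listed models in each library, by group (x axis), with the mean and SD of 6 libraries beside the points. In the 9 models the CONF points sit below all MSF points, and MSM1 is the highest male library.

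As log2 fold changes of MSF over CONF, the 9 models ran from 1.05 (SE 0.15, B230112I24Rik) to 1.35 (SE 0.16, Gm43880), or 2.07-fold to 2.56-fold, with a median of 1.26, beside a median of −0.0027 over all genes tested. All 9 passed the threshold that 25.1% of genes passed, and all 9 were without overlap, as were 3.81% of genes tested with every MSF library above every CONF library. These values are those that chose the models and are given as a description. The list is not a cut on the change. Of the 15 other same-strand models inside introns of Cntnap2, 6330419E04Rik, in intron 1, had a log2 fold change of 1.23, above 3 listed models, and Gm6352, a pseudogene in intron 17, had the lowest at 0.23 (SE 0.24). Over the 24 models the median was 1.07, 23 passed the threshold and 19 were without overlap.

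In males none of the 10 members passed by edgeR's quasi-likelihood test, none had an unadjusted p under 0.05, and none passed in DESeq2. The members were listed with the male results already known, so that the male tests are not independent of the choice. The log2 fold changes of MSM over CONM were between −0.04 (SE 0.26, Gm43880) and 0.07 (SE 0.33, B230112I24Rik) among the 9 models, with a median of 0.0014, and the adjusted p of every member rounded to 1.000. The standard errors of 0.24 to 0.35 set what could be detected at this spread. Over the 24 models the male values ran from −0.34 (Gm22839) to 0.31 (Gm43887), the latter with the smallest unadjusted p of 0.179, and the male groups overlapped in all of them.

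The ratio of the summed counts of the 9 models to the count of Cntnap2 in the same library needs no normalization between libraries. Per 100 counts of Cntnap2, the models had 6.65 to 8.99 counts in CONF (mean 8.14 ± 0.94, SD, n = 6) and 12.5 to 21.2 in MSF (16.2 ± 3.3). The female groups did not overlap, and the log2 ratio was higher in MSF by 0.98 (SE 0.14), or 1.97-fold, as a description. In males the ratio was 9.70 to 18.6 in CONM (14.2 ± 3.3) and 9.45 to 25.4 in MSM (14.1 ± 6.1). The difference of MSM minus CONM in the log2 ratio was −0.07 (SE 0.26, exact two-sided permutation p = 0.794, smallest possible 0.00216, n = 6 per group). Every CONF library was below every library of the other 3 groups.

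The labels number the libraries, and the ratio was also compared within library numbers 1 to 12, which are the odd-numbered replicates of each group, and within 13 to 24, the even-numbered ones, a split made here. In the first set the 3 CONM libraries had 9.70 to 18.6 counts of models per 100 of Cntnap2 and the 3 MSM libraries 14.3 to 25.4, a log2 difference of 0.29 (exact permutation p = 0.600). In the second set the CONM libraries had 12.5 to 14.8 and the MSM libraries 9.45 to 10.1, a log2 difference of −0.43 without overlap (exact permutation p = 0.1, the smallest that 3 against 3 can give). The male differences had opposite signs, neither passed, and the difference between the sets was not tested. In females both sets gave a higher ratio in MSF, by 1.21 and 0.75 on the log2 scale.

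The ratio moved with the no-gene share. By its definition this share can include pairs from introns outside any model, so that the share and the ratio are not independent measures. Over the 12 males, Pearson's r between this share and the log2 ratio was 0.966 (permutation p = 2e-05, the smallest that 100000 resamples give, adjusted p = 0.00014) and Spearman's rho was 0.951 (permutation p = 2e-05). Without the 2 libraries farthest from the median share, r was 0.941. In all, 7 such relations were computed, with p values adjusted over them. Within CONM r was 0.976 (exact permutation adjusted p = 0.00972), within MSM 0.971 (adjusted exact p = 0.0194) and within CONF 0.892 (adjusted exact p = 0.0130), with Spearman's rho of 1.000, 0.886 and 0.943 and adjusted exact p of 0.00972, 0.0389 and 0.0233. Within MSF r was 0.766 (exact permutation p = 0.0889) and rho 0.771 (exact permutation p = 0.103), and r was 0.640 without the 2 farthest libraries. Within the males of the first and the second library set r was 0.962 and 0.962 (adjusted exact p = 0.0194 and 0.0146), rho was 0.943 in both (adjusted exact p = 0.0233 in both), and r was 0.575 and 0.912 without the 2 farthest.

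**Figure D2:**
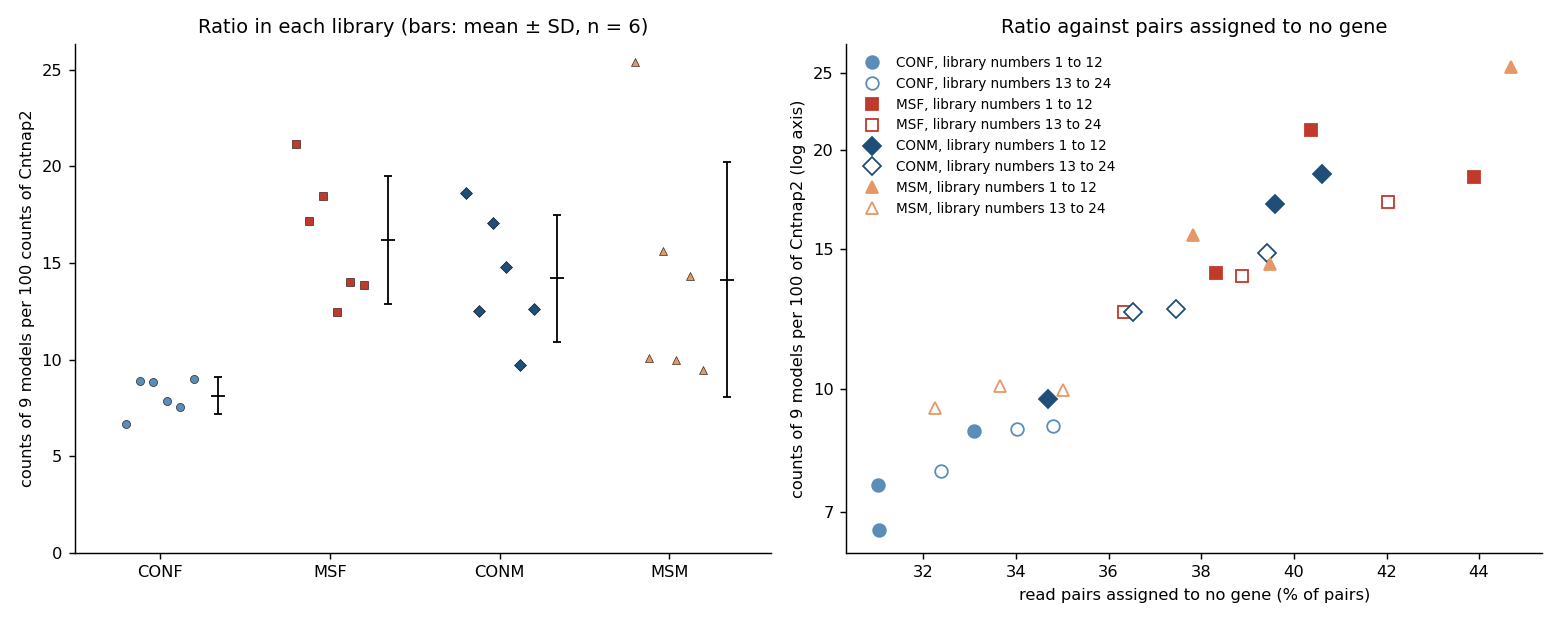
Left, counts of the 9 models per 100 counts of Cntnap2 in each library by group, with mean and SD (n = 6); right, the same ratio on a log axis against the no-gene share in percent of read pairs, with filled points for library numbers 1 to 12 and open points for 13 to 24. CONF libraries take the low end of the ratio, at 6.65 to 8.99, and MSM1 the high end at 25.4; on the axis of the no-gene share, CONM5, MSM2 and MSM6 lie in the CONF range.

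With this share as a covariate in the female fit, the median log2 fold change of the 9 models was 0.86 (range 0.34 for B230112I24Rik to 0.96) and that of Cntnap2 0.44, and no gene of 20571 passed by edgeR's quasi-likelihood test, with 1174 at an unadjusted p under 0.05. Since the share did not overlap between CONF and MSF, the group and the share cannot be told apart in females. In the male fit with the covariate the 9 models ran from 0.02 to 0.15, and no member had an unadjusted p under 0.05.

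Counts per kb of model fell along the gene in every group. B230112I24Rik, nearest the start, had the highest density of the 24 models, with 82.4 normalized counts per kb in CONF, 171 in MSF, 140 in CONM and 148 in MSM. Gm43886, in intron 3, had the lowest, with 2.57, 6.57, 5.49 and 5.57. Spearman's rho between density and distance over the 24 models, which share libraries, was −0.84 in CONF, −0.83 in MSF, −0.83 in CONM and −0.84 in MSM. A pair is counted when it overlaps a model, so that counts per kb can run higher in shorter models. The models were 304 bp (Gm22839) to 4369 bp (Gm43870) long, and B230112I24Rik, at 1229 bp, was the shortest listed model. The part of length in these densities was not tested.

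The density was also set against the place of a model inside its own intron, a description made after the densities were seen. Over all 24 models, Spearman's rho between density and the share of the intron already passed was −0.47 in CONF, −0.45 in MSF and −0.44 in CONM and MSM, weaker than with distance along the gene. In intron 8 the 7 models fell in CONF from 31.6 per kb (Gm22839, 22.4 kb into the intron) to 7.73 (Gm43870, 120.8 kb). Spearman's rho there was −1 in CONF, CONM and MSM and −0.96 in MSF. Gm22839 is short, at 304 bp, and had only 5 to 27 counts per library. Gm43875, 3.75 kb into intron 13, had 29.1 per kb in CONF, while Gm43881, 91.5% of the way through intron 11, had 4.76. Gm43886 lay 91.4% of the way through intron 3. Within each library, Gm43875 was above Gm43881, Gm43871 near the start of intron 8 was above Gm43870 in the same intron and above Gm43886, and B230112I24Rik was above Gm43876, each in 24 of 24 libraries. Gm6352 went against this order, with 14.7 per kb in CONF at 87.3% of the way through intron 17. In intron 1 the relation was looser than in intron 8, with rho of −0.61 in CONF and −0.53 in MSF over 12 models.

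**Figure D3:**
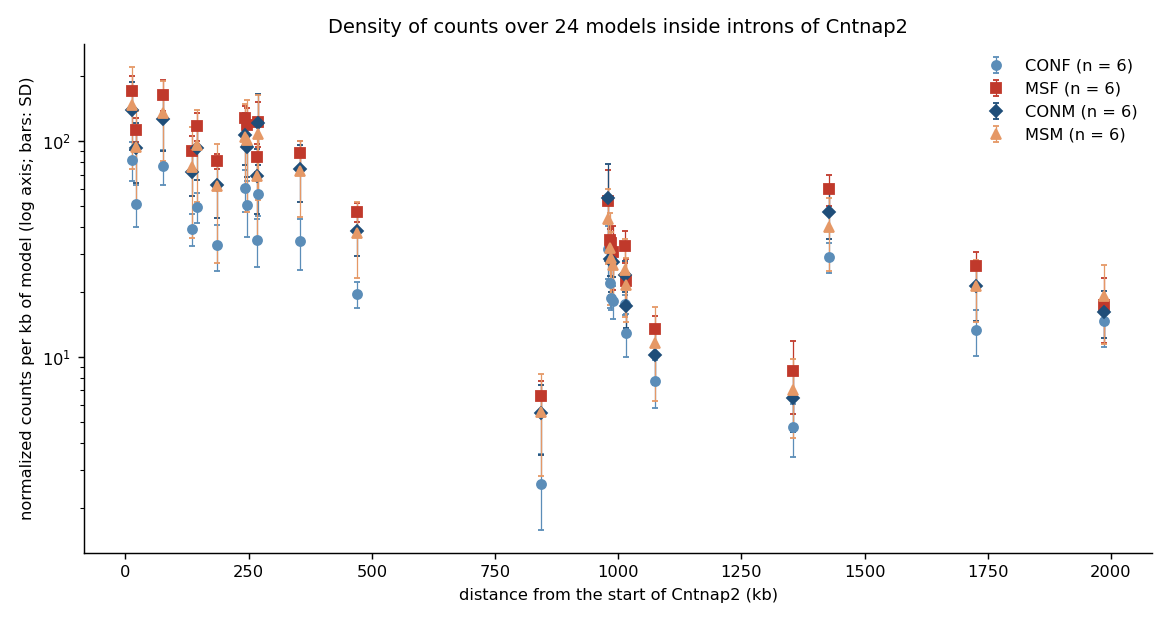
Mean normalized counts per kb (log axis, bars SD, n = 6 libraries) of the 24 same-strand models against distance from the start of Cntnap2 in kb, by group. The CONF mean is the lowest of the 4 in all 24 models, and density falls along intron 1, at the left, and again along intron 8, near the middle of the axis.

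The least-squares slope of log2 counts per kb on distance was −1.44 ± 0.14 per Mb in CONF and −1.80 ± 0.17 in MSF (SD, n = 6), so that the fall was steeper in MSF by 0.36 per Mb (difference −0.36, SE 0.090), and the groups overlapped. In males the slope was −1.76 ± 0.22 in CONM and −1.70 ± 0.23 in MSM, a difference of 0.05 (SE 0.13, exact two-sided permutation p = 0.690, n = 6 per group). Over the 9 listed models alone the female difference was 0.30, of the opposite sign.

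As a description, the female log2 fold changes varied along the gene, and not in 1 direction only. Gm43886 in intron 3 had 1.32. The 12 models of intron 1 had log2 fold changes of 1.05 to 1.35 (median 1.21), the 7 of intron 8 had 0.66 (Gm43871) to 0.91 (Gm43888, median 0.80), and Gm43875 in intron 13 and Gm43883 in intron 14 had 1.05 and 0.99. Spearman's rho between the female log2 fold change and distance was −0.61 over the 24 models, and it was 0.09 for the male log2 fold change. Inside intron 1 the values tended to rise with distance, opposite to the order over the whole gene, but not steadily. They were 1.05 at B230112I24Rik and 1.15 at Gm43879, the first 2 models, and 1.35 at Gm43880 and 1.26 at Gm43876, the last 2. Between them Gm43869 (241.7 kb) had 1.08. This rise was not tested.

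**Figure D4:**
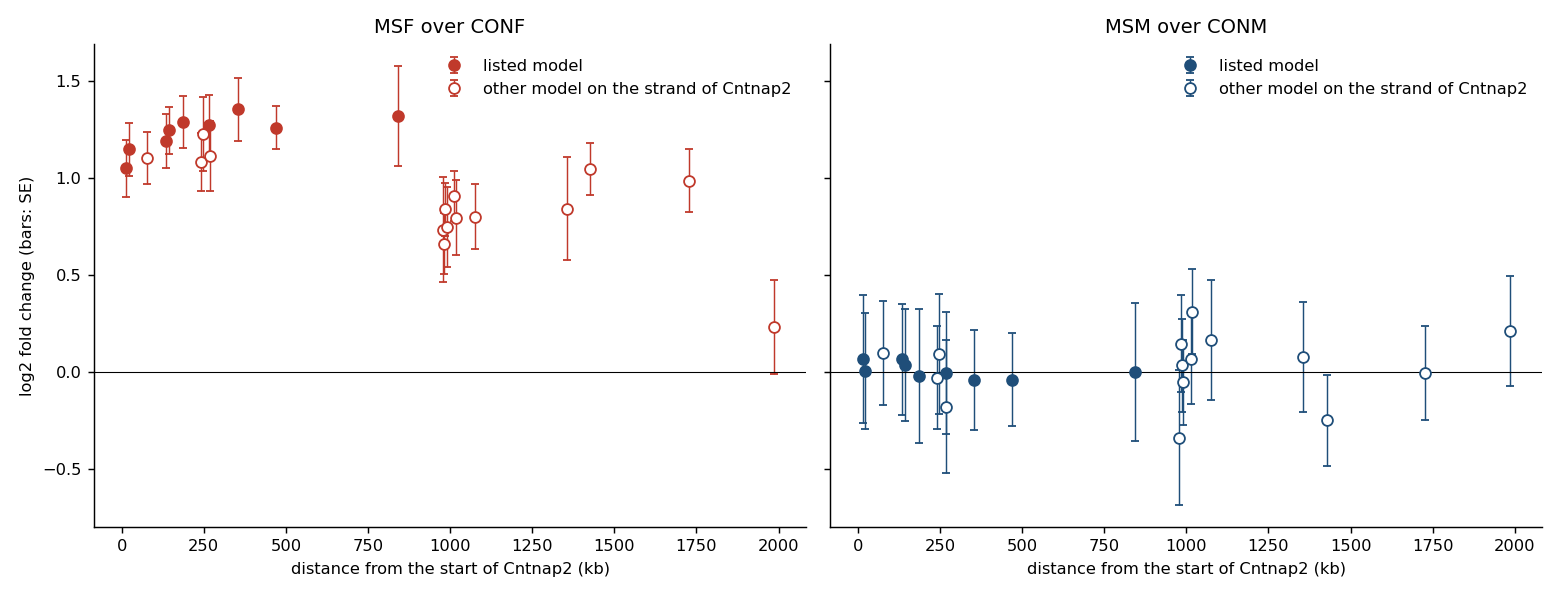
Log2 fold change (bars SE) of each same-strand model of Cntnap2 against distance from the start of the gene in kb, MSF over CONF on the left and MSM over CONM on the right, with listed models filled. The female values run from 0.23 to 1.35 and all lie above 0, and the male values lie between −0.34 and 0.31.

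The signal was on the strand of Cntnap2. Over the 24 libraries the 9 models had 285 (Gm43886) to 7830 (Gm43879) sense counts and 2 to 18 antisense counts each, at most 0.697% of their counts. There are 4 features annotated inside the gene on the other strand, and the reads over them also came mainly from the strand of Cntnap2. Over their exons that strand had 36.5 to 75.7 normalized counts per library in CONF, 69.7 to 103 in MSF, 45.0 to 91.0 in CONM and 42.6 to 99.5 in MSM, with overlap between the female groups. Of the 4, 3 had at most 2 counts on their own strand in all libraries together, and Rbpj-ps3 had 137 against 378 on the strand of Cntnap2.

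The 9 models varied together over the 24 libraries. Pearson's r of log2 CPM was 0.81 to 0.99 over the 36 pairs of models (median 0.94), and 0.49 (Gm43876) to 0.62 (Gm43882) between a model and Cntnap2. These values pool the 4 groups and are a description. Among 14279 genes outside the span of Cntnap2 with a mean of at least 100 counts, the 5 most like the summed models were Gm42583 (r = 0.963), Gm45159 (0.963), Gm45178 (0.961), Gm45182 (0.956) and Gm47017 (0.953). Of these, 4 are themselves TEC models inside introns of long neuronal genes, Gm42583 in Kcnd2, which encodes a Kv4 potassium channel, Gm45178 and Gm45182 in Dlg2, which encodes the scaffold PSD-93, and Gm47017 in Grik2, a kainate receptor, and Gm45159 is a lincRNA. The 5 most like Cntnap2 itself were the protein-coding genes Gpr101 (r = 0.962), an orphan receptor, Cdh4 (0.944), a cadherin, Wfs1 (0.943), a protein of the endoplasmic reticulum, Fam120b (0.937) and Nhs (0.931). No gene was in both groups of 5.

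Models inside the introns of other genes also had higher counts in MSF, with a smaller median change. Of 2258 such models tested in females, 1071 passed upward and 1 downward, beside 13.1% and 11.9% of all genes tested. Their median log2 fold change was 0.42, and 93.6% were above 0. The median of the 2294 tested in males was −0.05, with none passing by edgeR's quasi-likelihood test. Of these, 33 had an unadjusted p under 0.05, beside 0.923% of all genes tested. Per 1000 counts of the 3981 other intronic models together, the 9 models of Cntnap2 had 3.52 to 5.07 counts in CONF, 6.73 to 8.41 in MSF, 3.96 to 8.02 in CONM and 4.29 to 9.64 in MSM. The female groups did not overlap, with a log2 difference of 0.84 (SE 0.11), again as a description. In males the difference was 0.01 (SE 0.22, exact two-sided permutation p = 0.981, n = 6 per group).

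Of 48 host genes with at least 5 such models tested, Cntnap2 had the highest median female log2 fold change, 1.07 over 24 models. Grik2 followed with 0.97 over 6 models and Dlg2 with 0.93 over 19. The 3 lowest were Antxr1, an anthrax toxin receptor, at −0.07 over 5 models, Cdk14, a cyclin-dependent kinase, at 0.01 over 8, and Gm20388 at 0.07 over 17. The median was above 0 in 47 of the 48 hosts in females and ran from −0.21 to 0.17 in males. The listed models of Cntnap2 were chosen on the female libraries, so that the rank of Cntnap2 is a description. A single model inside another gene reached 1.48 in females, above the highest model of Cntnap2 at 1.35. The counts over the hosts' own exons were tested as well. Dlg2 had a female log2 fold change of 0.02 (adjusted p = 0.817 by edgeR's quasi-likelihood test) and Grik2 0.32 (adjusted p = 0.0380 by the same test). Cdk14 and Antxr1 had −0.62 and −0.34 (adjusted p = 0.135 and 0.280 by edgeR's test), further from 0 than the medians of their models, and Gm20388 was not tested. Spearman's rho between the length of the host and its median was 0.28 over the 48 hosts. A model inside several protein-coding genes was given to the longest of them. Gm20388, at 4435 kb, was among the 2 hosts longer than Cntnap2, and the part of such spans in this rho was not tested.

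**Figure D5:**
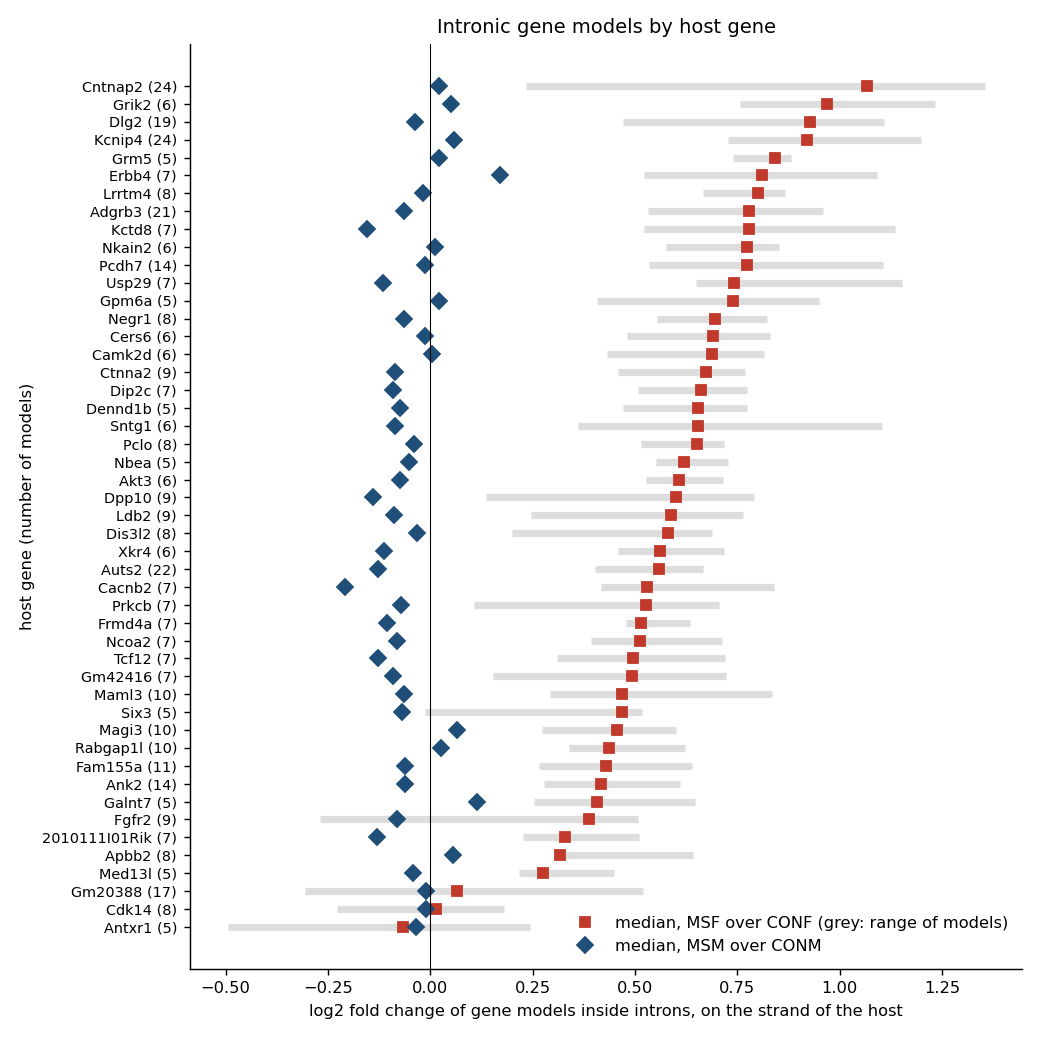
Median log2 fold change of gene models inside introns, on the strand of the host, for 48 host genes with at least 5 tested models (number in brackets); squares are MSF over CONF with the range of the models in grey, diamonds MSM over CONM. Cntnap2, whose listed models were chosen on the female libraries, is at the top at 1.07 in females and near 0, at 0.02, in males.

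A list of 23 genes for the family, partners and regulators of Caspr2 did not rise with the models. By edgeR's quasi-likelihood test none of them was higher in MSF than in CONF. Lower in MSF were 5 of 23, beside 11.9% of all genes tested, and the median log2 fold change was −0.07. The 5 were Cntnap1, which encodes Caspr of the paranodal junction (log2 fold change −0.37, SE 0.079, adjusted p = 0.0106), Lgi3, a secreted ligand of the ADAM22 family (−0.37, SE 0.096, adjusted p = 0.0239), Kcnab2, a Kv1 β subunit (−0.31, SE 0.089, adjusted p = 0.0337), Kcna2, a Kv1 channel (−0.35, SE 0.12, adjusted p = 0.0678), and Cntn2, the contactin that binds Caspr2 (−0.39, SE 0.15, adjusted p = 0.0975). Cntnap1 had 12786 to 16675 normalized counts in CONF and 10179 to 13404 in MSF, which overlapped, and Lgi3 had 3065 to 4757 and 2538 to 3038, which did not. With the no-gene share as a covariate none of the 23 passed, but in that fit no gene of 20571 did. The log2 fold changes of Cntnap1 and Lgi3 there were −0.39 and −0.32.

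The other members of the list did not pass in females. The Caspr relatives Cntnap3, Cntnap4, Cntnap5a, Cntnap5b and Cntnap5c had log2 fold changes of 0.09, −0.37 (SE 0.20), 0.22 (SE 0.13), −0.05 and 0.22 (SE 0.13). Among Kv1 genes, Kcna6 had −0.37 (SE 0.16, adjusted p = 0.124 by edgeR's test), close to that of Kcna2, while Kcna1 had −0.12, Kcna4 0.06 and the β subunit gene Kcnab1 0.06. The contactin gene Cntn1 had −0.12, Epb41l3, which encodes the cytoskeletal linker protein 4.1B, −0.10, the scaffolds Dlg1, Dlg2 and Dlg4 0.06, 0.02 and −0.10, Adam22 −0.07, its ligand gene Lgi1 −0.04, and the transcription factors Foxp1 and Foxp2 0.02 and 0.30 (SE 0.24). In males none of the 23 passed by edgeR's quasi-likelihood test, none had an unadjusted p under 0.05, and the log2 fold changes ran from −0.14 (Kcna4) to 0.11 (Kcna6).

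Markers of other cells were counted beside the 11.9% of all genes that passed downward in MSF. The summed normalized counts of 4 oligodendrocyte markers were 161764 to 242997 in CONF (median 202918) and 148343 to 181502 in MSF (median 172206). These overlapped, with 2 of the 4 markers passing downward. Those of 6 markers of cortical excitatory neurons were 11180 to 82008 in CONF and 4020 to 34841 in MSF, also overlapping. Their median was much lower in MSF, at 8965 beside 29093 in CONF. Of the 6 markers, 1 passed downward, a share near that of all genes. No defining marker of either list was at 0. The 8 markers of striatal projection neurons summed to 80129 to 228199 in CONF (median 189499) and 148442 to 204274 in MSF (median 194040), with none passing. In tissue, fewer cells of a type and less RNA per cell cannot be told apart, and the part of these cells in the values of Cntnap2, its models or its partners was not tested.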

How the data were processed

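RNA-seq libraries of 24 mice (6 per group) were analyzed. The authors trimmed the reads, aligned them to mm10 with STAR (version 2.6.1b in the submitters' processing notes, which also name CASAVA 1.8, HTSeq and DESeq2) and GENCODE M15, and deposited raw counts: for each gene, the uniquely mapped pairs on both strands together and on each strand. Pairs that overlap exons of more than 1 gene are left out of such counts. The sense-strand counts were used. Identifiers were matched without version to GENCODE M21 on GRCm38 (52489 of 52636). The no-gene share is the pairs over no sense exon, of all pairs assigned, ambiguous or over no exon.

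Genes were filtered with filterByExpr (minimum count 10), normalized by TMM and tested with the robust quasi-likelihood F test of edgeR 4.0.16 (R 4.3.3; limma 3.58.1), MSUS against control within each sex, with Benjamini-Hochberg adjustment over all genes tested and a threshold of 0.10; DESeq2 1.42.0 gave size factors and an alternative. The procedure was also run on simulated data with the same dispersion for every gene, which does not measure what could be detected among the members. Ratios and slopes per library (pseudocount 0.5 for slopes) were compared with exact permutation tests at a threshold of 0.05 (scipy 1.17.1, Python 3.11.15). Estrous cycle stage was not modeled, because 6 males carry a stage in the labels and 6 females carry none.

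The members and lists were chosen with earlier results of these data known. Named are the members, the 23 genes of the partner list, models at the ends of a range, the 5 genes outside Cntnap2 most like the models and the 5 most like Cntnap2, and the 3 hosts with the highest and the 3 with the lowest median. Gm43871, Gm43875, Gm43881, Gm43883 and Gm43888 were named after their values were seen. Within each group, the lowest chi-square per gene over the 60 pairs of libraries was 6.34, so that none was a copy. Alternatives tried were a DESeq2 fit, DESeq2 size factors in edgeR, other filters, counts without regard to strand, replicate block, early against late library numbers (a split made here) or no-gene share as a covariate, a fit of 24 animals, other summaries, and each animal left out. Marker lists for astrocytes and microglia were also computed: 1 of 3 astrocyte markers was lower in MSF and no microglial marker passed. Counting limits the precision of low models such as Gm43886.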

Additional observations from a re-analysis of the deposited data

Results flagged for a closer look

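In 56 groups of 6 libraries checked, 4 single values stood apart from the other 5 of their group by more than Dixon's 95% criterion allows, and chance flags about 1 in 20 such groups. Gm43885 had 389 normalized counts in MSM1, with the next highest MSM library at 196, and Gm43880 had 273 in MSM1, with the next at 156. MSM1 also had the highest no-gene share (44.7%) and the highest ratio of models to Cntnap2. Gm43880 had 245 normalized counts in MSF3, with the next MSF library at 189, and MSF3 had the highest no-gene share among females (43.9%). Gm43874 had 136 in CONF6, with the next CONF library at 92.8. Without MSM1 the male log2 difference of the ratio of models to Cntnap2 was −0.26, and no member passed in males with or without it.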

How the results depend on the processing

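The median log2 fold change of the 9 models in females was 1.17 to 1.32 with each animal left out and kept its sign in every alternative, and the female log2 difference in the ratio of models to Cntnap2 was 0.89 to 1.05. No member and no partner gene passed in males in any fit. The numbers of the replicates did not pair the animals (correlations of same-numbered deviations −0.23 to 0.23 in females and −0.35 to 0.25 in males, with 2 of 12 libraries in each sex correlating best with their own number); with the replicate block 4 partner genes passed in females, the female median was 1.26, and the male difference in the ratio stayed −0.07 (exact permutation p = 0.781). The count of partner genes lower in MSF was 3 in a fit of all 24 animals and without a filter on low counts. It was 0 with the no-gene share as a covariate, a fit in which no gene at all passed. With each animal left out it was 3 to 7, and it was 3 without CONF2, MSF2, MSF3, MSF4 or MSF5. The male log2 difference in the ratio to Cntnap2 was 0.29 in library numbers 1 to 12 alone. It was −0.26 to 0.028 with each animal left out, turning above 0 without CONM1, MSM2, MSM4 or MSM6. The male log2 difference in the ratio to other intronic models was −0.34 in library numbers 13 to 24 alone and −0.13 to 0.12 with each animal left out. The male difference in slope over the 24 models was −0.0073 to 0.12 with each animal left out. Over the 9 listed models alone, the difference in slope was 0.30 in females and −0.025 in males. The log2 fold changes of single members changed sign in 53 of 209 refits in males and in 0 of 209 in females. The other intronic models were also taken without small RNAs, or as TEC models alone (both chosen after seeing the data). The female log2 difference in the ratio to them was then 0.83 and 0.74. The cause of these shifts was not tested. Counts of 2 to 20 per library limit Gm43886.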
